A study of Rattus norvegicus with 11 samples.

Results

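Among the transcripts measured in rat adrenal tissue, 39 genes of mitosis and of the mitotic spindle were chosen by symbol, as a list of the parts that build the spindle, attach chromosomes to it and split the cell. Earlier results of these data were known when the list was chosen, so shares of all genes beside its counts are description only. A gene was taken as measured where a probe set of the platform annotation carried its symbol and no other. On that rule 35 of the 39 were measured, among 14506 genes named in the same way. Cenpe, Cenpf, Anln and Ckap2 had no such probe set and are named only. Of the measured genes, Ccnb2 alone had more than 1 probe set, and the brighter over all arrays stood for it.

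The 11 arrays were single-colour Affymetrix arrays, each of total RNA from its own biological replicate, taken here as a different rat. All rats were of the Sprague–Dawley white eye/Wistar–Kyoto background and untreated. Adrenal lesions came from 7 rats heterozygous for a mutation of p27Kip1, a cyclin-dependent kinase inhibitor whose gene the labels spell Cdknb1 (Cdkn1b in current rat nomenclature). This is the mutation of MENX rats, which develop tumours in several endocrine organs. The 3 older lesions were from a female of 23 months (replicate 1) and males of 21 months (replicates 2 and 3). The 4 younger lesions were from rats of 13 months, females (replicates 4 and 5) and males (replicates 6 and 7). Normal adrenal glands came from 4 wild-type rats, a female and a male of 24 months (replicates 1 and 2) and a female and a male of 12 months (replicates 3 and 4). All lesions were thus from mutant rats and all normal glands from wild-type rats. In any comparison of lesions with normal glands, lesion and genotype cannot be told apart. The labels say no more of a lesion than its tissue, and not how much of the surrounding gland was taken with it.

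In dividing cells the transcripts of these genes accumulate in the later part of the cycle and are cleared afterwards, so that in resting tissue they are scarce. Cyclin B with Cdk1 drives entry into mitosis, Polo and Aurora kinases build the spindle, the kinetochore couples chromosomes to microtubules, and a checkpoint holds back the anaphase-promoting complex until every chromosome is attached. The adult adrenal medulla turns over slowly, and p27Kip1 acts earlier in the cycle, on the kinases that lead into DNA replication. Values below are log2 expression after robust multi-array averaging (RMA) by the authors, so a difference of 1 is a doubling of signal. Values in each group are listed in replicate order.

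Many late-cycle genes share promoter elements, the cell cycle genes homology region (CHR), which is bound by the MuvB complexes, and the CCAAT box, which is bound by NF-Y. RefSeq promoter windows of assembly GRCr8, from 250 bases before to 50 bases after the annotated start, were held for 29 of the 35 measured genes. The table used had no entry for Ccna2, Aurkb, Pbk, Ube2c, Tpx2 and Racgap1. The CHR letters TTTGAA or TTTAAA, searched on both strands, stood in 28 of the 29 windows (96.6%) and in 28.3% of 33469 RefSeq windows of the same length. Melk was the gene without either. TTTGAA alone was in 72.4% of the members' windows against 18.3% of all, and TTTAAA in 37.9% against 13.6%. CCAAT, also on both strands, was in 21 of 29 (72.4%) against 37.5% of all windows, and 15 of 29 (51.7%) held it in 2 or more places against 11.2%. CHR letters and CCAAT stood together in 72.4% of the members' windows and in 11.3% of all. These are matches of letters in a window and not shown to be sites. A few stretches are printed because they belong to genes on which the results below turn, and because each shows the CHR letters downstream of CCAAT letters. Each is the 140 bases before the annotated start, 5′ to 3′ on the gene's own strand, with CCAAT (or ATTGG, its reverse complement) and TTTGAA or TTTAAA (or TTCAAA) in capitals. They lie at chr10:84473094-84473233 on the minus strand (Top2a), chr2:33655226-33655365 minus (Ccnb1), chr8:79981659-79981798 minus (Ccnb2), chr20:19265153-19265292 plus (Cdk1), chr5:137255800-137255939 minus (Cdc20) and chr10:28406327-28406466 minus (Pttg1).
Top2a: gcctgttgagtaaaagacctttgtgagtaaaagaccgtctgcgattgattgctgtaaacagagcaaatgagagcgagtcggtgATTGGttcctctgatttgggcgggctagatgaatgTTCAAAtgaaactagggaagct
Ccnb1: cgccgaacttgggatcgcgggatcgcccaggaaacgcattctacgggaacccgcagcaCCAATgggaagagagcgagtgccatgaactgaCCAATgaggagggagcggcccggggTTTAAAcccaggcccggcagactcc
Ccnb2: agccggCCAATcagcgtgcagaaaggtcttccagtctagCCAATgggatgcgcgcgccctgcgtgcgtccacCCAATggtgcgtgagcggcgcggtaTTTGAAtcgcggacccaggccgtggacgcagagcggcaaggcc
Cdk1: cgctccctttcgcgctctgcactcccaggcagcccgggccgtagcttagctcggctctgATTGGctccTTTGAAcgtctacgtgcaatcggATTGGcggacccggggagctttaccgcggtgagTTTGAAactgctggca
Cdc20: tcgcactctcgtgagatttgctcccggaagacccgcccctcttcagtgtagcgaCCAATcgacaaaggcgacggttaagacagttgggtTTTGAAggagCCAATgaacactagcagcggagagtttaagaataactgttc
Pttg1: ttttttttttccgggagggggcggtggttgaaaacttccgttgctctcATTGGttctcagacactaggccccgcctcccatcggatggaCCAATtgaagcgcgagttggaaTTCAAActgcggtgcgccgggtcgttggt

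In Top2a the TTCAAA begins 22 bases before the start and the nearest ATTGG 57 bases before it. Ccnb1 carries TTTAAA at 25 bases with CCAAT at 50 and 82. Ccnb2 has CCAAT letters at 68, 101 and 134 bases, evenly spaced, upstream of TTTGAA at 43.

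One array stands apart in its tissue markers: lesion replicate 1 had the lowest mean level of adrenal cortex markers, 9.94, and the highest of chromaffin markers, 10.81, and values without it are given below. The median level of the 35 genes was higher in each of the 3 older lesions than on any other array, while the younger lesions lay close to the normal glands. The median over the 35 was 5.04, 4.78 and 4.40 in the older lesions, 4.10, 3.92, 4.07 and 3.93 in the younger lesions, and 3.95, 3.97, 3.93 and 3.93 in the normal glands. The mean of these array medians was 4.74 ± 0.32 (SD, n = 3) in older lesions, 4.00 ± 0.09 (n = 4) in younger lesions and 3.95 ± 0.02 (n = 4) in normal glands. No older lesion overlapped the other groups in this summary, and the 3 older lesions differed more among themselves than the other 8 arrays did. In bulk tissue a change in the number of cells of a type and a change in RNA per cell cannot be told apart. Lesion replicate 1 was the highest array for 17 of the 35 genes, replicate 2 for 8 and replicate 3 for 7. The exceptions were Kif20a, highest in lesion replicate 4, Aurka, highest in lesion replicate 5, and Dlgap5, highest in normal replicate 4.

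**Figure D1:**
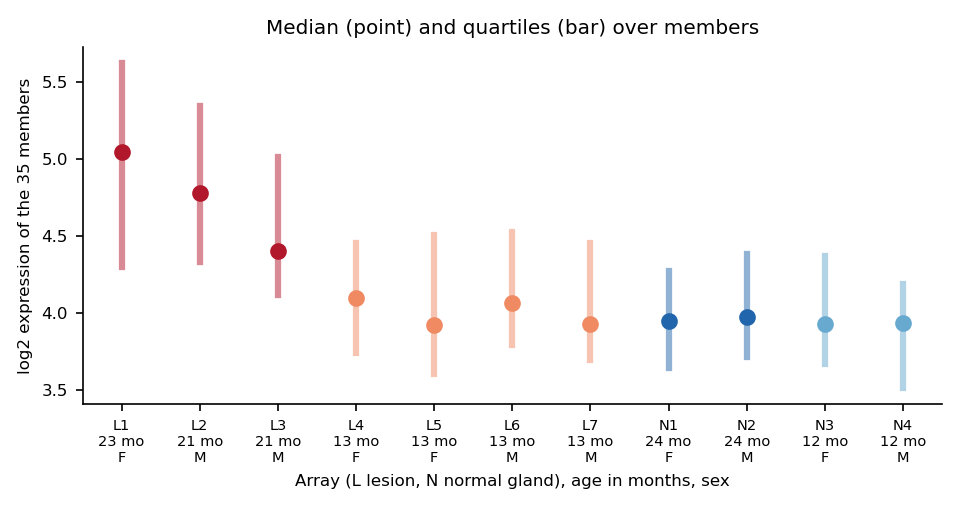
Log2 expression of the 35 measured mitosis and spindle genes on each array: points are the median over the genes and bars run from the lower to the upper quartile. Dark red marks older lesions, light red younger lesions, dark blue older and light blue younger normal glands. The medians of the older lesions are 5.04, 4.78 and 4.40, and the other 8 arrays lie between 3.92 and 4.10.

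Arrays could also be set against each other gene by gene, without a model. In 25 of the 35 genes all 3 older lesions lay above all 4 younger lesions, a separation found in 3.67% of the 14506 named genes. The opposite order, all older below all younger lesions, was found in 0 of the 35 and in 5.1% of named genes. The same 25 genes also had all 3 older lesions above each of the 8 other arrays, against 0.703% of named genes. Leaving out an older lesion can only keep or raise this count, and without lesion replicate 1 it was 25, against 1.54%. With all arrays, some of the 25 separated by a narrow gap between the lowest older lesion and the highest other array. That gap was 0.019 for Tpx2, 0.02 for Cdk1, 0.024 for Ect2, 0.026 for Cdc20 and 0.029 for Cks2. It was 0.055 for Plk1 and for Ttk. The genes outside the 25 were Aurka, Bub1, Bub1b, Melk, Pbk, Mad2l1, Ube2c, Cenpa, Kif20a and Dlgap5. Of the promoter windows held, CCAAT letters were in 18 of 21 for the genes inside the 25 and in 3 of 8 for those outside, which is a description of few windows.

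**Figure D2:**
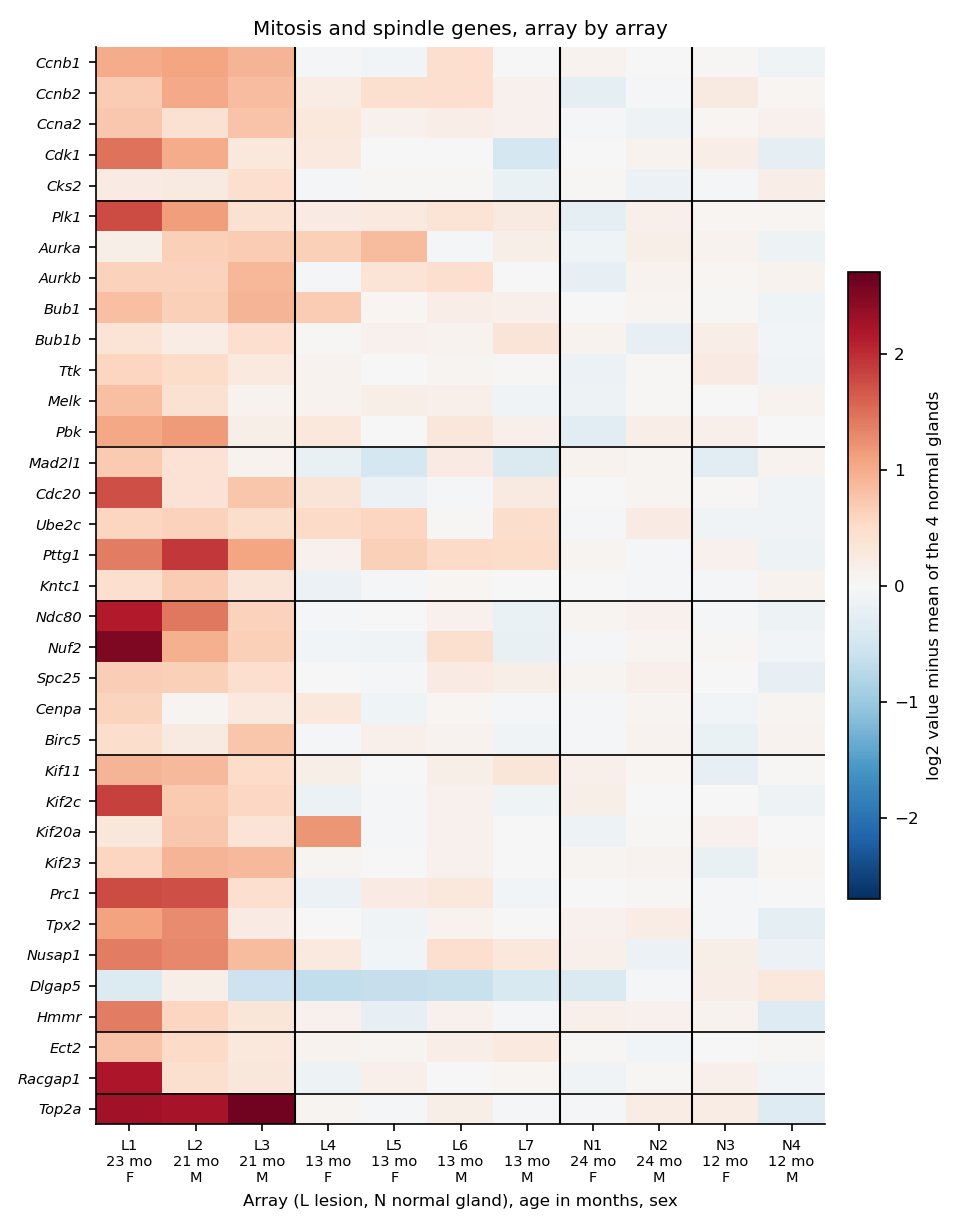
Log2 value of each measured gene (rows, grouped by role from the cyclin-dependent kinase core at the top to Top2a at the bottom) on each array (columns), minus that gene's mean over the 4 normal glands, on a colour scale centred on 0. The 3 columns of older lesions are red for nearly all genes, Kif20a is reddest in lesion replicate 4, and Dlgap5 is blue in the younger lesions.

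The comparison of older with younger lesions was fitted with limma over all 29214 probe sets, in a model of 4 cells (lesion or normal, older or younger). The difference lay above 0 for 35 of 35 genes, with a median of 0.60, while 48.5% of the named genes lay above 0 with a median of -0.01. It ran from 0.09 for Aurka to 2.33 for Top2a. With p-values adjusted by Benjamini and Hochberg over the whole array, 1 of the 35 genes, Top2a, had an adjusted p under 0.05 (passed, below), as did 3 probe sets in all (0.0103%). At an unadjusted p under 0.05 there were 29 of the 35, each higher in older lesions, against 9.6% of probe sets in either direction. A difference of 2-fold or more was seen for 6 of the 35 (Top2a, Ndc80, Nuf2, Prc1, Kif2c and Pttg1), against 0.862% of named genes. That count was 4 without lesion replicate 1 (Top2a, Prc1, Pttg1 and Ndc80), against 0.338%, and 11 without lesion replicate 3, against 1.59%. Without lesion replicate 3, the older lesion with the lowest median, 4 of the 35 passed (Top2a, Prc1, Ndc80 and Tpx2), against 0.024% of probe sets. Without lesion replicate 6, 2 passed (Top2a and Ccnb1), against 0.0205%. Without lesion replicate 1 the median difference was 0.47. Top2a kept its call there (2.38, limma adjusted p = 0.00579), while the other genes did not pass. The share of all probe sets that passed in that setting is not given here.

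**Figure D3:**
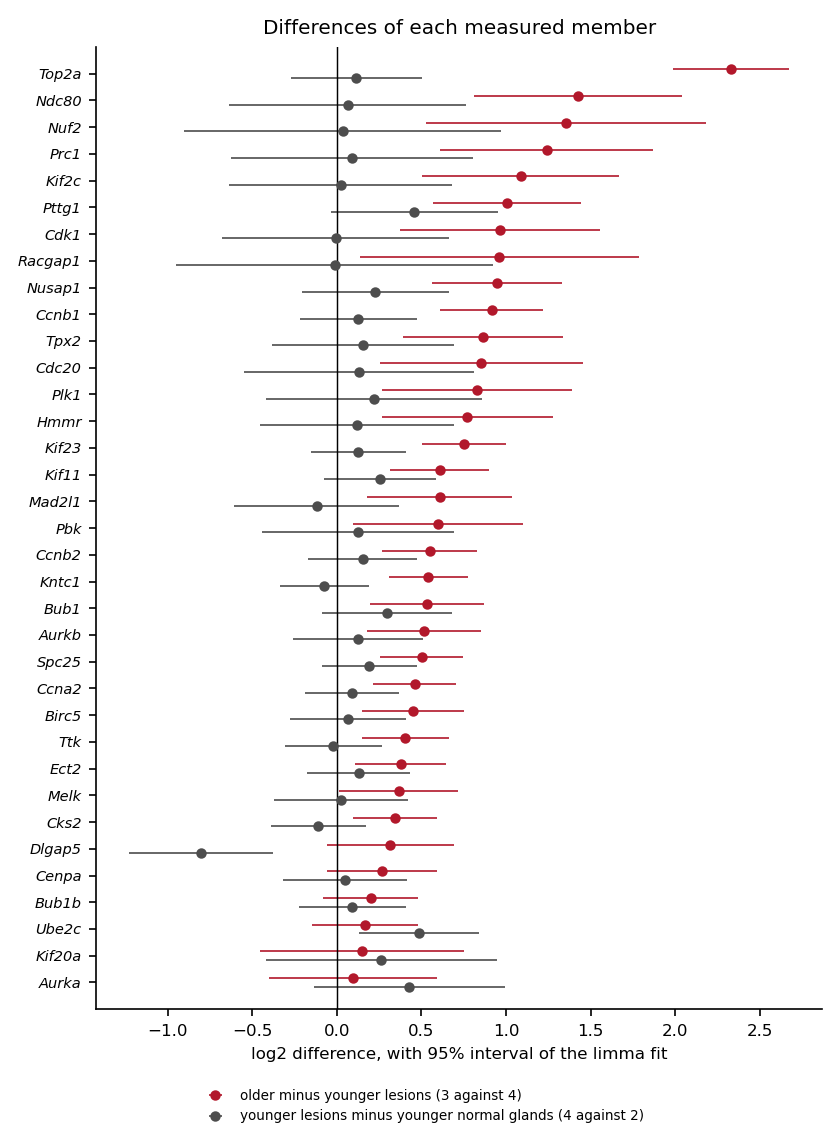
Log2 difference of each measured gene with its 95% interval from the limma fit, for older minus younger lesions (red, 3 against 4 arrays) and for younger lesions minus younger normal glands (grey, 4 against 2 arrays), ordered by the former. The red points run from 0.09 to 2.33, all to the right of 0, and the grey points lie between -0.80 and 0.49.

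The labelled tissue could be checked against its markers, and some of these differed between the same arrays as the mitosis genes. Chromaffin markers were well expressed on all arrays, with a list mean of 10.25 to 10.81 in older lesions, 9.43 to 10.12 in younger lesions and 9.96 to 10.32 in normal glands, and 9 of 11 lay above 0 in older minus younger lesions (median 0.44; Slc18a2 2.21). Cortex markers were present too, at 9.94 to 11.32, 11.27 to 11.55 and 10.73 to 11.17, and 0 of 8 lay above 0 (median -0.65, Mc2r -1.23). The lowest cortex value, 9.94, and the highest chromaffin value, 10.81, were both from lesion replicate 1. Markers of T, B and NK cells, which can themselves divide, had a list mean of 4.64 to 5.99 in older lesions, 4.79 to 5.05 in younger lesions and 4.90 to 5.19 in normal glands, and 9 of 11 lay above 0 (median 0.53; Nkg7 2.13). The highest and the lowest list mean of all arrays, 5.99 and 4.64, were both from older lesions, replicates 1 and 2. Neutrophil markers ran from 4.55 to 4.92, 4.07 to 4.41 and 3.93 to 4.27, and 5 of 8 lay above 0 (median 0.06). S100a8 (2.50) and S100a9 (2.44) were the highest, while Mpo (-0.39), Cxcr2 (-0.32) and Elane (-0.16) lay below 0. Elane, Camp, Ltf and Csf3r stayed under 5 on every array. Adipocyte markers gave a median of -0.43 with 1 of 8 above 0 (Ucp1, 0.508), and Adipoq (-1.805) and Cidec (-1.085) were the lowest. Macrophage, erythroid, endothelial, fibroblast and Schwann or sustentacular markers had medians between -0.09 and 0.10. In the Schwann or sustentacular list, 3 of 6 lay above 0, and S100b was the lowest at -1.41 (-0.94 without lesion replicate 1). Without lesion replicate 1 the median was -0.20 for cortex markers (1 of 8 above 0), 0.29 for chromaffin markers (11 of 11) and 0.21 for T, B and NK cell markers (6 of 11). By limma 0 marker genes passed in this comparison. Their part in the differences of the mitosis genes was not tested.

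Top2a encodes DNA topoisomerase II alpha, which untangles sister chromatids before they part, and was the gene with the clearest separation. The log2 values of Top2a were 6.58, 6.53 and 6.90 in older lesions, against 4.38, 4.25, 4.46 and 4.26 in younger lesions and 4.24, 4.51, 4.50 and 3.94 in normal glands. The 3 older lesions were alike and none of the other 8 arrays came near them, while younger lesions and normal glands overlapped. Top2a rose by 2.33 (SE 0.15, 95% interval 1.99 to 2.67) from younger to older lesions, 5.03-fold, with a limma adjusted p of 0.000852. Leaving out lesion replicate 1 gave 2.38 (adjusted p = 0.00579). Across its 19 alternative settings the difference lay between 2.22 and 2.40 and passed in each. The filter keeping brighter probe sets is not among them, because it left Top2a out.

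The cyclin-dependent kinase core comprised the cyclins Ccnb1, Ccnb2 and Ccna2, the kinase Cdk1 and its small binding subunit Cks2. In 5 of 5 the older lesions lay above the younger lesions and the normal glands, against 0.703% of named genes. The median difference between older and younger lesions was 0.55. Ccnb1 read 4.83, 4.89 and 4.75 in the older lesions, 3.76, 3.74, 4.28 and 3.84 in the younger lesions and 3.91, 3.82, 3.86 and 3.70 in the normal glands. The 3 older lesions were close to each other, and lesion replicate 6 stood above the rest of the younger lesions. Ccnb1 differed by 0.92 (SE 0.14, adjusted p = 0.129) between older and younger lesions. For Cdk1 the older lesions gave 4.95, 4.49 and 3.76, the younger lesions 3.74, 3.49, 3.50 and 3.00 and the normal glands 3.47, 3.58, 3.67 and 3.22. Here lesion replicate 3 barely cleared the younger lesions, and the difference of 0.97 (SE 0.27, adjusted p = 0.361) was 0.69 without lesion replicate 1. The log2 values of Ccnb2 were 5.38, 5.70 and 5.52 in older lesions, against 4.89, 5.12, 5.13 and 4.79 in younger lesions and 4.42, 4.64, 4.92 and 4.74 in normal glands. Ccnb2 was also a little higher in younger lesions than in most normal glands, with some overlap, and differed by 0.55 (SE 0.13) between older and younger lesions. The other probe set of Ccnb2 gave a difference of 0.46 and nearly the same values. Ccna2, the cyclin of S phase and mitotic entry, differed by 0.46 and Cks2 by 0.34.

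Of the mitotic kinases 8 were measured, with a median difference of 0.46 between older and younger lesions. In 3 of the 8 (Plk1, Aurkb and Ttk) the older lesions lay above all other arrays, against 0.703% of named genes. Plk1 read 5.71, 5.07 and 4.36 in the older lesions, 4.16, 4.20, 4.30 and 4.20 in the younger lesions and 3.70, 4.09, 3.99 and 3.99 in the normal glands. Plk1, the Polo kinase of spindle assembly and mitotic entry, thus fell into 3 levels without overlap, although lesion replicate 3 was close to the younger lesions. Its older minus younger difference was 0.83 (SE 0.25, adjusted p = 0.39) and 0.50 without lesion replicate 1. For Pbk the older lesions gave 4.61, 4.72 and 3.74, the younger lesions 3.85, 3.58, 3.88 and 3.71 and the normal glands 3.26, 3.75, 3.71 and 3.55. Pbk, a kinase active in mitosis, was high in lesion replicates 1 and 2 and at the level of the younger lesions in replicate 3. In older lesions Bub1 was at 3.99, 3.82 and 4.10, in younger lesions at 3.85, 3.23, 3.35 and 3.32 and in normal glands at 3.16, 3.26, 3.22 and 3.07. Bub1, a checkpoint kinase at the kinetochore, overlapped because lesion replicate 4, a younger lesion, reached the older ones. The differences were 0.60 for Pbk and 0.53 for Bub1. Aurkb, the kinase of the chromosomal passenger complex, differed by 0.52, Ttk, which starts the spindle checkpoint, by 0.41, Melk by 0.37 (0.18 without lesion replicate 1) and Bub1b, the BubR1 checkpoint protein, by 0.20.

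Aurka, the Aurora kinase of centrosomes and spindle poles, did not separate the ages. Aurka read 6.21, 6.69 and 6.74 in the older lesions, 6.70, 6.91, 6.00 and 6.21 in the younger lesions and 5.93, 6.21, 6.14 and 5.91 in the normal glands. The lesions of both ages overlapped fully, and lesion replicates 4 and 5, from the younger females, were as high as the older lesions of the males. Its older minus younger difference was 0.09 (95% interval -0.40 to 0.59), and it turned to -0.005 without lesion replicate 3 and to -0.06 without lesion replicate 6.

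Genes of the spindle checkpoint and of anaphase control gave a median difference of 0.61 over 5. In 3 of the 5 (Cdc20, Pttg1 and Kntc1) the older lesions lay above the other 8 arrays, against 0.703% of named genes. Pttg1 is securin, the inhibitor of the protease that opens cohesin rings. Pttg1 read 5.54, 6.08 and 5.24 in the older lesions, 4.29, 4.81, 4.69 and 4.66 in the younger lesions and 4.24, 4.13, 4.28 and 4.03 in the normal glands. Every older lesion was above every younger one, and every lesion above every normal gland, though lesion replicate 4 only just. Pttg1 differed by 1.01 (SE 0.20, adjusted p = 0.247) between older and younger lesions, and by 0.46 (SE 0.22, adjusted p = 0.866) between younger lesions and younger normal glands. In older lesions Cdc20 was at 5.62, 4.28 and 4.65, in younger lesions at 4.25, 3.73, 3.87 and 4.13 and in normal glands at 3.88, 3.97, 3.93 and 3.80. Cdc20, the activator of the anaphase-promoting complex, was highest by far in lesion replicate 1, and its difference of 0.86 (SE 0.27) was 0.47 without that array. For Mad2l1 the older lesions gave 6.00, 5.68 and 5.40, the younger lesions 5.11, 4.81, 5.52 and 4.91 and the normal glands 5.40, 5.37, 5.01 and 5.40. Mad2l1, the Mad2 checkpoint protein, overlapped because lesion replicate 6 exceeded lesion replicate 3, and its difference was 0.61. Kntc1, a kinetochore protein that recruits the checkpoint, differed by 0.54.

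Ube2c, the ubiquitin-conjugating enzyme of the anaphase-promoting complex, showed another order of the arrays than the other genes of its role. The log2 values of Ube2c were 5.00, 5.05 and 4.91 in older lesions, against 4.94, 5.00, 4.45 and 4.90 in younger lesions and 4.38, 4.65, 4.34 and 4.33 in normal glands. Lesions of both ages were alike, apart from lesion replicate 6, and all but that array were above the normal glands. Ube2c differed by 0.16 (SE 0.14) between older and younger lesions, by 0.49 (SE 0.16, adjusted p = 0.731) between younger lesions and younger normal glands, and by 0.47 (SE 0.12, adjusted p = 0.258) between all lesions and all normal glands.

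Kinetochore and centromere genes gave a median difference of 0.50 over 5 measured of 7 listed. In 4 of the 5 the older lesions lay above the other 8 arrays, against 0.703% of named genes, Cenpa being the exception. Ndc80, Nuf2 and Spc25 are subunits of the Ndc80 complex, the microtubule-binding part of the kinetochore. Ndc80 read 5.61, 4.90 and 4.08 in the older lesions, 3.43, 3.46, 3.58 and 3.28 in the younger lesions and 3.54, 3.58, 3.42 and 3.33 in the normal glands. For Nuf2 the older lesions gave 6.57, 5.01 and 4.69, the younger lesions 3.98, 3.96, 4.48 and 3.85 and the normal glands 4.00, 4.13, 4.09 and 3.98. In older lesions Spc25 was at 4.75, 4.74 and 4.54, in younger lesions at 4.10, 4.04, 4.32 and 4.25 and in normal glands at 4.18, 4.24, 4.11 and 3.87. In the first pair the order was lesion replicate 1, then 2, then 3, all above the remaining arrays, whereas for Spc25 the older lesions were close together. The older minus younger difference was 1.43 (SE 0.28, adjusted p = 0.247) for Ndc80, 1.36 (SE 0.37, adjusted p = 0.359) for Nuf2 and 0.50 (SE 0.11, adjusted p = 0.305) for Spc25. Without lesion replicate 1 the values were 1.05 for Ndc80, 0.78 for Nuf2 and 0.46 for Spc25. Birc5, the survivin subunit of the chromosomal passenger complex, differed by 0.45, and Cenpa, the histone variant that marks centromeres, by 0.27 (0.12 without lesion replicate 1).

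Spindle motors and microtubule factors gave a median difference of 0.77 over 9 measured of 10 listed. In 7 of the 9 the older lesions lay above the other 8 arrays, against 0.703% of named genes. Prc1 bundles the antiparallel microtubules of the central spindle. Prc1 read 6.03, 6.01 and 4.72 in the older lesions, 4.12, 4.50, 4.57 and 4.21 in the younger lesions and 4.27, 4.31, 4.25 and 4.26 in the normal glands. Lesion replicates 1 and 2 were equally high and replicate 3 only just above the younger lesions, while the normal glands agreed closely. Prc1 differed by 1.24 (SE 0.28, adjusted p = 0.309), and by 1.68 (adjusted p = 0.00895) without lesion replicate 3. For Kif2c the older lesions gave 5.54, 4.39 and 4.24, the younger lesions 3.53, 3.65, 3.79 and 3.57 and the normal glands 3.83, 3.68, 3.68 and 3.55. Kif2c, a kinesin that takes microtubule ends apart, was led by lesion replicate 1, with a difference of 1.09 (SE 0.26) that was 0.68 without it. In older lesions Nusap1 was at 5.65, 5.57 and 5.11, in younger lesions at 4.53, 4.20, 4.71 and 4.55 and in normal glands at 4.41, 4.11, 4.43 and 4.11. Nusap1, which binds microtubules near chromosomes, differed by 0.95 (SE 0.17, limma adjusted p = 0.216), with lesion replicate 3 lower than replicates 1 and 2. Kif23 read 4.26, 4.60 and 4.56 in the older lesions, 3.74, 3.68, 3.79 and 3.67 in the younger lesions and 3.75, 3.76, 3.47 and 3.72 in the normal glands. Kif23, the motor of centralspindlin, had lesions of like age close together and its lowest value in normal replicate 3, and its difference of 0.75 (SE 0.11, adjusted p = 0.129) was 0.86 without lesion replicate 1. Tpx2, which activates Aurka and nucleates microtubules, read 5.23, 5.43 and 4.38 in the older lesions and 4.13, 4.07, 4.24 and 4.16 in the younger lesions. In the normal glands it was at 4.26, 4.36, 4.11 and 3.88, so lesion replicate 3 barely cleared normal replicate 2. Tpx2 differed by 0.86 between older and younger lesions. Hmmr, a spindle-pole protein, differed by 0.77 (0.46 without lesion replicate 1) and Kif11, the motor that pushes the poles apart, by 0.61.

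Kif20a and Dlgap5 were the other 2 of the 9. For Kif20a the older lesions gave 4.25, 4.67 and 4.31, the younger lesions 5.14, 3.92, 4.07 and 3.93 and the normal glands 3.80, 3.98, 4.07 and 3.93. Kif20a, a kinesin of the midzone, was highest in a younger lesion, replicate 4, and differed by 0.15 (SE 0.27) between older and younger lesions. In older lesions Dlgap5 was at 5.35, 5.88 and 5.14, in younger lesions at 5.05, 5.09, 5.11 and 5.31 and in normal glands at 5.31, 5.65, 5.88 and 6.00. Dlgap5, which stabilises kinetochore fibres, was higher in the normal glands than in most lesions, and lesion replicate 2 alone of the lesions was within their upper range. It differed by 0.31 (SE 0.17) between older and younger lesions and by -0.80 (SE 0.19, adjusted p = 0.434) between younger lesions and younger normal glands.

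Cytokinesis was represented by 2 measured of 3 listed genes. The older lesions lay above the other 8 arrays in both, against 0.703% of named genes. Racgap1 is the partner of Kif23 in centralspindlin. Racgap1 read 6.55, 4.81 and 4.67 in the older lesions, 4.23, 4.51, 4.37 and 4.42 in the younger lesions and 4.27, 4.40, 4.50 and 4.29 in the normal glands. Lesion replicate 1 stood alone, and the other older lesions were a little above the younger ones, so the difference of 0.96 (SE 0.37, adjusted p = 0.468) was 0.36 without replicate 1. In older lesions Ect2 was at 3.92, 3.67 and 3.44, in younger lesions at 3.25, 3.22, 3.32 and 3.41 and in normal glands at 3.18, 3.08, 3.15 and 3.19. Ect2, the exchange factor that activates RhoA at the cleavage furrow, fell into 3 levels without overlap, but only just. The lowest older lesion was at 3.44 and the highest younger lesion at 3.41. The lowest younger lesion was at 3.22 and the highest normal gland at 3.19. The difference between older and younger lesions was 0.38 (SE 0.12, limma adjusted p = 0.399).

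**Figure D4:**
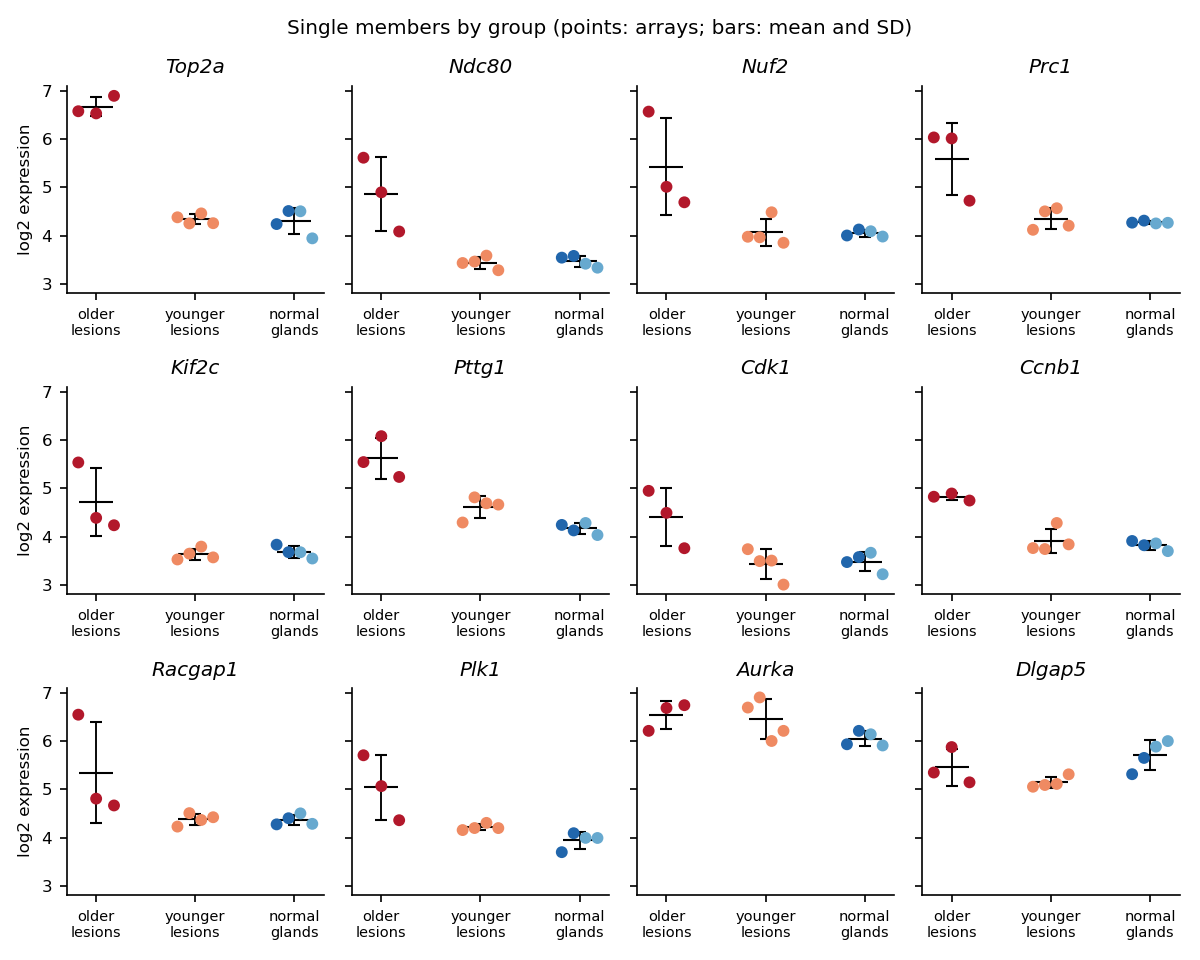
Log2 expression of 12 of the genes in older lesions (dark red), younger lesions (light red) and normal glands (dark blue older, light blue younger): points are arrays, horizontal bars the mean and whiskers the SD. Top2a in older lesions lies between 6.53 and 6.90 with no other array above 4.51, while Aurka overlaps between the lesion groups and Dlgap5 is highest in normal glands.

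Set against the older normal glands, the older lesions gave a median difference of 0.72 over the 35 genes, with 34 above 0 and Dlgap5 at -0.03. Tissue and genotype differ together here and in the other comparisons of lesions with normal glands. Top2a rose by 2.29 (SE 0.18, limma adjusted p = 0.00275) and was the 1 of the 35 that passed, against 0.0137% of probe sets. At an unadjusted p under 0.05 there were 30 of the 35, each higher, against 5.1% of probe sets, and 8 differed by 2-fold or more, against 0.517% of named genes. Without lesion replicate 1 those of 2-fold or more were 5 (Top2a, Pttg1, Prc1, Nusap1 and Ccnb2), against 0.434%, and without lesion replicate 3 they were 14, against 0.841%. The comparison rests on 2 older normal glands, so the spread of normal tissue of that age is little sampled. When all 4 normal glands served instead, 5 of the 35 passed, against 0.0822% of probe sets. They were Top2a (2.37, adjusted p = 0.000175), Pttg1 (1.45, adjusted p = 0.026), Ccnb1 (1.00, adjusted p = 0.0268), Nusap1 (1.18, adjusted p = 0.0305) and Kif23 (0.80, adjusted p = 0.0305). With array weights 3 passed (Top2a, Pttg1 and Ccnb2), against 0.0342%. Without lesion replicate 3 there were 2 (Top2a and Prc1), against 0.0137%. Without normal replicate 1 there were 0, against 0.00342%, and Top2a gave 2.16 (SE 0.23, adjusted p = 0.11), with 1 older normal gland left. The direction of Top2a was thus kept, and its call was not. Without a model, all 3 older lesions were above all 4 normal glands for 30 of the 35, against 2.48% of named genes.

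The younger lesions differed less from the normal glands than the older lesions did, as a median over the genes. Their difference from younger normal glands had a median of 0.12, with 28 of 35 above 0, against 50.2% of named genes and their median of 0.001, and a range from -0.80 (Dlgap5) to 0.49 (Ube2c). By limma 0 of the 35 passed, against 0.0342% of probe sets, and at an unadjusted p under 0.05 there were 2 (Dlgap5 lower and Ube2c higher), against 5.78%. All 4 younger lesions lay above all 4 normal glands in 3 of the 35 (Plk1, Pttg1 and Ect2), against 4.04% of named genes. The same 3 had all 7 lesions above all normal glands, against 0.496% of named genes. The number of the 35 genes above all normal glands was 33, 33 and 32 in the older lesions, against 25.8%, 15.8% and 22.3% of named genes on those arrays. In the younger lesions it was 14, 11, 18 and 10, against 26.0%, 24.0%, 19.0% and 23.4%. The younger lesions thus ranged from a share near that of all named genes to a larger one in lesion replicate 6.

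Among normal glands, older minus younger gave a median of 0.03 with 20 of 35 above 0. By limma 0 of the 35 passed, as did 0.0% of probe sets, and at an unadjusted p under 0.05 there were 0 of the 35 against 2.87%. Both older glands were above both younger glands in 9 of the 35, against 14.8% of named genes, and below them in 3, against 13.6%. The age difference in lesions minus that in normal glands had a median of 0.60, with 34 of 35 above 0. In that test of the difference itself 0 of the 35 passed, as did 0.0% of probe sets, although 15 of the 35 had an unadjusted p under 0.05, each higher, against 2.83%. Without normal replicate 1 these were 9, against 3.11%. Top2a gave 2.18 (SE 0.25, adjusted p = 0.171) and Pttg1 0.98 (SE 0.32). The test of the difference thus passed for no single gene at this number of arrays.

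With age left out of the model, as the series design compares the groups, all 7 lesions minus all 4 normal glands gave a median of 0.42, with 34 of 35 above 0 and Dlgap5 at -0.44. By limma 0 of the 35 passed, against 0.065% of probe sets. At an unadjusted p under 0.05 there were 13 (12 higher, and Dlgap5 lower), against 7.71%. They were 7 without lesion replicate 2 (against 8.39%), normal replicate 2 (5.57%) or normal replicate 4 (9.05%), and 8 without normal replicate 1 (6.24%). The largest difference was that of Top2a, 1.04, and the lowest adjusted p that of Ube2c, 0.258. Lesions of both ages enter this comparison, which for Top2a lie at separate levels.

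Other genes of mitosis, 161 in 8 lists, were also examined. In the 110 measured, 82 had an older minus younger lesion difference above 0, with a median of 0.17, and 0 passed. The older lesions lay above all younger lesions in 19 of the 110 and above all 8 other arrays in 12, where the shares of all named genes were those given above, 3.67% and 0.703%. The 6 measured kinesins outside the list were all above 0 (median 0.35), led by Kif4a (0.51), Kif18b (0.47, and 0.27 without lesion replicate 1) and Kifc1 (0.38, and 0.21 without it). Of 18 centrosome and spindle pole genes, 14 were above 0 (median 0.21), led by Tacc3 (0.98, and 0.65 without lesion replicate 1), Plk4 (0.74) and Ckap5 (0.55). Plk4, the kinase of centriole duplication, lay between 3.97 and 4.59 in older lesions, between 3.32 and 3.57 in younger lesions and between 3.41 and 3.52 in normal glands. The older lesions were thus apart from every other array for Plk4.

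The remaining lists hold complexes and regulators of chromosome structure and cell division. The 15 measured anaphase-promoting complex genes had a median of 0.14 with 9 above 0, in which Anapc5 gave 0.63 (0.30 without lesion replicate 1), Cdc26 0.50 and Anapc7 -0.41, beside 0.86 for their activator Cdc20. The subunits of the complex thus lay on both sides of 0. Cohesin holds sister chromatids together and condensin compacts them. The 7 cohesin and separase genes gave 0.21 (all above 0; Rad21 0.48), the 4 condensin subunits 0.23 (Smc2 0.71) and the 23 other kinetochore and centromere genes 0.09 with 17 above 0 (Cenpk 0.75, or 0.48 without lesion replicate 1, and Cenpw 0.63). Genes that govern mitotic entry and its transcription had a median of 0.04 over 22, 14 of them above 0, with Cdkn3 at 0.59, Cdc25b at 0.52 (0.25 without lesion replicate 1) and Wee1 at 0.51. Of the 22, 1 had all older lesions above the younger ones (Cdkn3), an order found in 3.67% of named genes. Lin54 (-0.49) and Nfya, 2 of the 22, had them all below, against 5.1% of named genes. These were named after their values were seen, and counts this small are not read as a result about them. Other genes of the division program had a median of 0.30 over 15 and 0.14 without lesion replicate 1, with Stmn1 at 1.38 (0.79 without it), Fam83d at 0.82 (0.38 without it) and Lmnb1 at 0.56. By limma 0 of the genes in these lists passed, against the 0.0103% of probe sets given above.

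DNA replication precedes mitosis, and 19 of its 26 measured genes had a difference above 0, with a median of 0.18. Rrm2, the regulated subunit of ribonucleotide reductase, was the 1 that passed. It read 6.16, 6.25 and 5.89 in older lesions, 5.10, 4.96, 4.80 and 4.71 in younger lesions and 4.47, 4.63, 4.18 and 4.38 in normal glands. These are 3 levels without overlap, as for Pttg1, and Rrm2 rose by 1.21 (SE 0.13, limma adjusted p = 0.0318) from younger to older lesions. Under 20 other settings, looked at for this gene after its values were seen, the difference lay between 1.03 and 1.31 and passed in 8. Left out singly, lesion replicates 1, 4, 5, 6 and 7 and each of the 4 normal glands ended the call, with an adjusted p of 0.144 without lesion replicate 1 and 0.151 without lesion replicate 7. Mcm6 gave 0.77 and Gins4 0.70. Of 15 G1 cyclins and inhibitors 11 were above 0 (median 0.18), with Cdkn2a at 0.96, Ccnd2 at -0.84 and Cdkn1a at 0.78. Without lesion replicate 1 the list's median was 0.10, Cdkn2a turned to -0.16, Ccnd2 gave -0.30 and Cdkn1a 0.44.

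**Figure D5:**
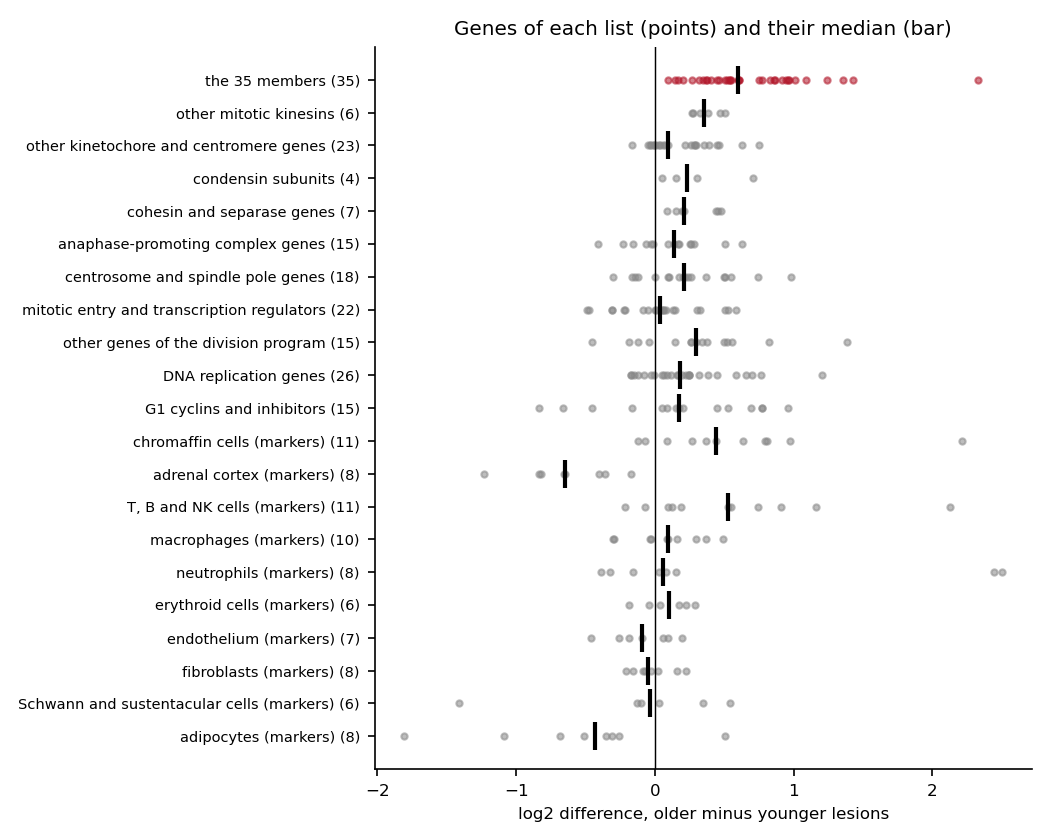
Older minus younger lesion difference of each measured gene (points) in the list of 35, in the other mitosis lists, in DNA replication and G1 genes and in marker lists of adrenal, blood and stromal cells; black bars are medians and the number of genes is in brackets. The 35 genes lie between 0.09 and 2.33 with a median of 0.60, the other mitosis lists have medians from 0.04 to 0.35, and adrenal cortex markers all lie below 0.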

How the data were processed

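Per the labels' protocols, biotin-labelled targets were made from amplified total RNA of 11 rat adrenal samples. The log2 values that the authors deposited are per probe set and come from RMA, run in Affymetrix Expression Console (version 1.3.0.187, per the submitters' processing notes). The build behind the probe design was not given in the sources used. The 11 array medians spanned 4.91 to 5.01, and any 2 arrays correlated at 0.960 to 0.992. There is no depth on arrays, whose number limits the precision. Without scanner files, detection above background was not analysed here. Of 29214 probe sets 15310 had 1 symbol, 323 several and 13581 none here, and 527 genes had more than 1 probe set, of which the one with the highest mean was used.

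Differences were tested with limma 3.58.1 (lmFit, eBayes, two-sided, R 4.3.3) on the deposited log2 values of all probe sets, with Benjamini-Hochberg adjustment over all 29214 and calls at an adjusted p under 0.05. Age and group entered as 4 cells, or group alone for lesions against normal glands. Intervals are 95% intervals of the fit. Same-numbered lesions and glands came from rats of different genotype and age, so the numbers were not taken as pairs. Their deviations from group means correlated at 0.182, 0.15, 0.073 and 0.209. These correlations cannot decide on pairing, because some numbers share age class or sex. Promoter letters were searched in RefSeq windows of GRCr8, the first entry per gene.

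The genes, roles, lists and tests were chosen with earlier results of these data known. Every listed gene is named. Values on all arrays are given for those that passed in any comparison or alternative setting and up to 3 per role with the widest age difference in lesions. They are also given for Aurka, Ube2c, Kif20a and Dlgap5, chosen after their values were seen as departures from the rest. Of each other list of mitosis, DNA replication and G1 genes up to 3 with the widest difference are named, and Lin54 and Nfya besides. Marker lists did not follow that rule. More genes are named of the neutrophil list, and none of the macrophage, erythroid, endothelial and fibroblast lists. Alternatives were renewed quantile normalization, centring, a filter keeping brighter probe sets, a trended and robust variance prior, array weights, 1 probe set or the mean per gene, sex as covariate, an adjusted p under 0.10, lesion arrays alone, the replicate number as a block, and each array left out in turn. Plots used matplotlib 3.10.9 (Python 3.11.15).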

Additional observations from a re-analysis of the deposited data

Results flagged for a closer look

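Single arrays stood far from the rest of their group in 12 of 105 groups examined (35 genes in 7 lesions, 4 younger lesions and 4 normal glands). In independent groups of a single level chance would flag about 1 in 20. Here the 7 lesions hold both ages and include the 4 younger ones, so the 12 cannot be set against that rate. In the lesions, replicate 1 was far above the next array for Nuf2 (6.569), Kif2c (5.536) and Racgap1 (6.547), and replicate 2 for Dlgap5 (5.876), while replicate 6 was far below for Ube2c (4.449). Of the younger lesions, replicate 4 stood out for Kif20a at 5.136, where the next was at 4.067. In normal glands, replicate 1 was low for Aurkb (4.416), replicate 2 high for Ube2c (4.653), replicate 3 low for Mad2l1 (5.014) and Kif23 (3.467), and replicate 4 high for Kntc1 (3.965) and low for Hmmr (3.478). Lesion replicate 1 was also the array with the lowest cortex marker level, 9.94.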

How the results depend on the processing

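The older minus younger lesion difference stayed above 0 for 34 of the 35 genes under every alternative that could be run for them, Aurka being the exception (-0.005 without lesion replicate 3, -0.057 without lesion replicate 6, and up to 0.261 over left-out arrays), and its median over the genes lay between 0.43 and 0.71. The number of genes that passed for older minus younger lesions was 1, and 1 to 4 when each array was left out in turn. When the dimmer probe sets were left out it was 0 of the 4 genes kept (Aurka, Ccnb2, Mad2l1 and Dlgap5, not Top2a). For older lesions minus older normal glands that number was 1, with 0 of the same 4 genes among brighter probe sets, 3 with array weights, 5 with all 4 normal glands, and 0 to 2 when each array was left out. The median of that comparison, 0.72, was 0.39 over the 4 brighter genes. With the replicate number as a replicate block, the median difference of lesions minus normal glands was 0.616 in place of 0.42, and 0 genes passed in both. The block drops lesions without a partner number among the normal glands, which leaves 3 older lesions and 1 younger. The numbers do not pair the samples. Leaving out an array can only keep or raise a count without overlap, so the 25 to 30 genes with older lesions above the younger ones over left-out lesions, and the 25 to 29 above all other arrays, show nothing of stability; these settings, and the values of other lists without lesion replicate 1, were added after the data were seen. In the other comparisons 0 genes passed under each alternative run. Only 4 of the 35 were above the median probe set, so most values are dim, and signal over background was not analysed here.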

Other observations

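Among all named genes, the mitosis and spindle genes included, 102 of 14506 had the pattern of 3 older lesions above the other 8 arrays. They were looked at after their values were seen and with no test. Of the 102, 25 were the mitosis and spindle genes described above (24.5%), 12 were other mitosis genes, 3 DNA replication genes, 3 markers of adrenal or blood cells, and 59 were in no list. Ordered by the gap between the lowest older lesion and the highest other array, 7 of the 10 widest gaps belonged to the 35 genes. Top2a had the widest, 2.02. S100a9, a calcium-binding protein of myeloid cells, was next with 1.38, then Rrm2 with 0.79. Outside all lists the widest gaps were those of Vgf (0.36), which encodes a neuroendocrine secretory peptide precursor, Pclaf (0.35), a PCNA-binding factor, and Prlh (0.29), which encodes prolactin-releasing hormone. Slc18a2, the vesicular monoamine transporter of chromaffin cells, had a gap of 0.29, and Lmnb1, which encodes lamin B1, 0.33.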
